A study of Homo sapiens with 6 samples.

Results

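NRF2, the transcription factor encoded by NFE2L2, 6 enzyme genes that are commonly used as its targets (HMOX1, NQO1, GCLM, GCLC, TXNRD1 and SRXN1) and the superoxide dismutase genes SOD1 and SOD2 were examined in HEC-1-A cells exposed to SMIP34. The rule that picks the rows uses gene names and no measured value, although the names were chosen with earlier results of these data known, and all 9 of 9 were among the 23228 genes of the count tables. HEC-1-A is an established human endometrial cancer cell line, so all 6 libraries come from 1 line. SMIP34 is a small molecule that the study used as an inhibitor of PELP1, a scaffold protein of nuclear receptor signaling and of the complex that matures the large ribosomal subunit. The 3 treated libraries came from cells given 20 µM SMIP34 for 24 h in McCoy's 5A medium with 10% FBS. The labels of the 3 control libraries name the same medium without SMIP34, whereas the methods of the study name a vehicle. The labels do not say whether the 3 libraries of a group came from separate cultures, so the p-values below measure the spread between these libraries, which may be technical. The question was how transcripts of the antioxidant response differed between SMIP34-treated and control cells.

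In unstressed cells NRF2 is bound by KEAP1, an adaptor of a CUL3 ubiquitin ligase, and is degraded. When electrophiles or oxidants modify KEAP1, or when the autophagy receptor p62 (encoded by SQSTM1) occupies it, NRF2 accumulates in the nucleus, pairs with a small MAF protein and binds antioxidant response elements near genes for glutathione synthesis, thioredoxin reduction, quinone reduction and heme breakdown. Superoxide dismutases turn superoxide into hydrogen peroxide, SOD1 in the cytosol and SOD2 in the mitochondrial matrix, and SOD2 is also known as a target of NF-kappaB. NRF2 is regulated mainly at the level of its protein, which was not measured in these libraries.

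6 of the 9 transcripts were higher and 1 was lower after SMIP34. HMOX1 rose by 57.4%, SOD2 by 20.3%, GCLM by 19.8%, SRXN1 by 15.9%, TXNRD1 by 8.82% and GCLC by 8.11%, while SOD1 fell by 10.5%, a call that was lost with offsets for gene length (adjusted p-value 0.0738). NFE2L2 and NQO1 did not pass the test. In all, 7 of 9 members (77.8%) passed an adjusted p-value under 0.05 in the quasi-likelihood test of edgeR, against 34.6% of the 13408 genes tested. By direction, 17.4% of all genes tested were higher and 17.2% lower. The median log2 fold change was 0.12 over the 9 members and -0.0022 over all genes tested. With the further limit of an absolute log2 fold change over 0.5 that the study used, HMOX1 alone remained of the 9, against 3.31% of all genes. At this limit 444 of all genes passed here and 318 with DESeq2, the method of the study, which reported fewer. The 3 treated and 3 control libraries did not overlap in CPM (counts scaled to library size) for any of the 9, against 44.5% of all genes. This separation depended on the scale. In TPM (counts divided by exon length, then scaled to the same total) the groups overlapped for NFE2L2, NQO1 and SOD1. SOD1 was at 537 to 581 TPM in control and at 511 to 546 TPM in treated libraries. The other members did not overlap in TPM. Since these are bulk libraries, a change in the number of expressing cells and a change in RNA per cell cannot be told apart.

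**Figure D1:**
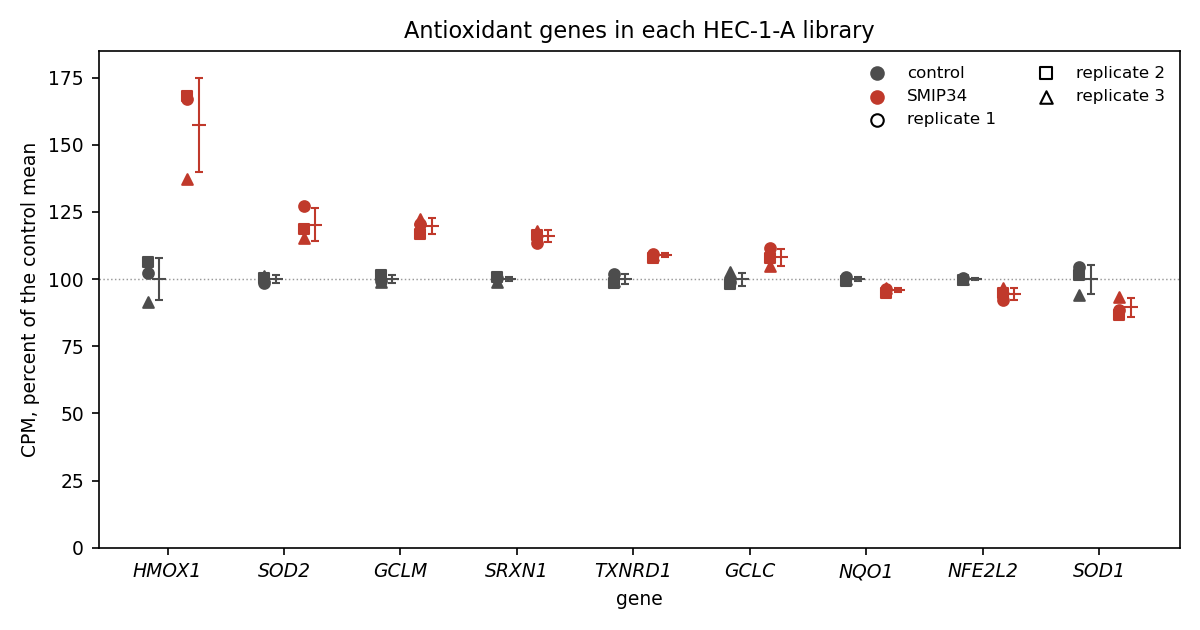
CPM of each of the 9 genes in each library, as a percentage of the mean of the 3 control libraries, with the mean and SD of each group and the replicate number given by the marker. HMOX1 is the gene whose treated libraries lie farthest from the control libraries (57.4% higher by the fitted fold change), and SOD1 is the gene with the largest fitted decrease (10.5%).

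The libraries held 19562711 to 22014835 counts each, and TMM scaling factors lay between 0.988 and 1.01. Control replicate 1 had a count for 16881 genes, against 15965 to 16100 in the other 5 libraries. All of 8 epithelial markers passed the filter on low counts. Of these, 0 rose and 4 fell (KRT8, KRT19, MUC1 and PAX8), against 17.4% higher and 17.2% lower of all genes tested. The summed level of the 8 was 3405 to 3502 CPM in control and 3243 to 3255 CPM in treated libraries. Of 12 markers of fibroblasts, endothelium and leukocytes 3 passed the filter, COL1A1 rose from 2.96 to 4.19 CPM, the summed level of all 12 was 5.01 to 6.13 CPM in control and 6.01 to 7.12 CPM in treated libraries, and LUM and CD3E were at 0 in every library. The part of these marker differences in the results below was not tested. Fold changes moved with gene length: their median was -0.10 in the shortest and 0.12 in the longest of 10 equal groups of genes by exon length.

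Promoter sequences are shown for GCLM and TXNRD1, whose windows held the core of the antioxidant response element, and for NQO1, a widely used NRF2 target whose window held none. The windows are those of RefSeq on GRCh38.p14, from 250 bases before to 50 bases after an annotated start, and 7 of the 9 genes had at least 1. The core was searched on both strands as TGACNNNGC, which can overlap an AP-1 site (TGANTCA). It was in 13.3% of all 35116 promoter windows, in the GCLM window and in both TXNRD1 windows. No window of NFE2L2, NQO1, GCLC, SRXN1 or SOD2 held it, although GCLC, SRXN1 and SOD2 also rose. HMOX1, which rose most, and SOD1 had no window and were not searched. The bases from 120 before the start to the first transcribed base are printed, 5′ to 3′ in the direction of transcription, and capitals mark the core on either strand. GCLM lies at chr1:93909430-93909550 on the minus strand, TXNRD1 at chr12:104215659-104215779 and, for its other start, chr12:104286912-104287032 on the plus strand, and NQO1 at chr16:69726560-69726680 on the minus strand.
GCLM: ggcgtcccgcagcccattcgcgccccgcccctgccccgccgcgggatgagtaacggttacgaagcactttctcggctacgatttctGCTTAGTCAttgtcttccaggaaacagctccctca
TXNRD1: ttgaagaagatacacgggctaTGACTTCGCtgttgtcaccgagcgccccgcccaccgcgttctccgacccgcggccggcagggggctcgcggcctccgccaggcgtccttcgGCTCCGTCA
TXNRD1 other start: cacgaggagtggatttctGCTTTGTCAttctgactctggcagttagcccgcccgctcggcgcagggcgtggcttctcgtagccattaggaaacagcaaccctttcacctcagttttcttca
NQO1: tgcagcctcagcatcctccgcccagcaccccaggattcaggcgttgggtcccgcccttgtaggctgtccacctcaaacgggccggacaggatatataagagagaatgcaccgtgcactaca

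The GCLM core lay 34 to 26 bases before the start on the opposite strand. The window of the upstream TXNRD1 start held a core 99 to 91 bases before the start and another that ends on the first transcribed base, and the other TXNRD1 window held 1 at 102 to 94 bases before the start. An AP-1 site was in 7.71% of all windows, the NF-kappaB site in 11.3% and a heat shock element (GAANNTTC) in 6.77%. None of the 7 genes with a window held any of these motifs in it. These shares, like that of the core, count windows and not genes, and NFE2L2, TXNRD1 and SOD2 had more than 1 window each. Known antioxidant response elements of several of these genes lie farther from the start than these windows reach, and a match is a description of letters, not a bound site.

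Transcript abundance within a library was compared per length in TPM, which divides counts by annotated exon length before scaling each library to the same total. TXNRD1 was the most abundant of the 9 transcripts, at 713 ± 19.3 TPM in control and 815 ± 2.27 TPM in treated cells (mean ± SD, n = 3 in each group, here and below). SOD1 followed with 558 ± 21.9 and 525 ± 18.2 TPM, and NQO1 with 431 ± 10.2 and 435 ± 2.17 TPM. For SOD1 and NQO1 the control and treated libraries overlapped in TPM. The remaining order was SRXN1, SOD2, NFE2L2, GCLC, GCLM and HMOX1, from 138 down to 14.3 TPM in control and from 168 down to 23.7 TPM in treated cells. The order was the same in both groups, and no neighbors in it overlapped in any library of the same group. HMOX1, with the largest fold change, was thus the least abundant of the 9 in both groups.

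**Figure D2:**
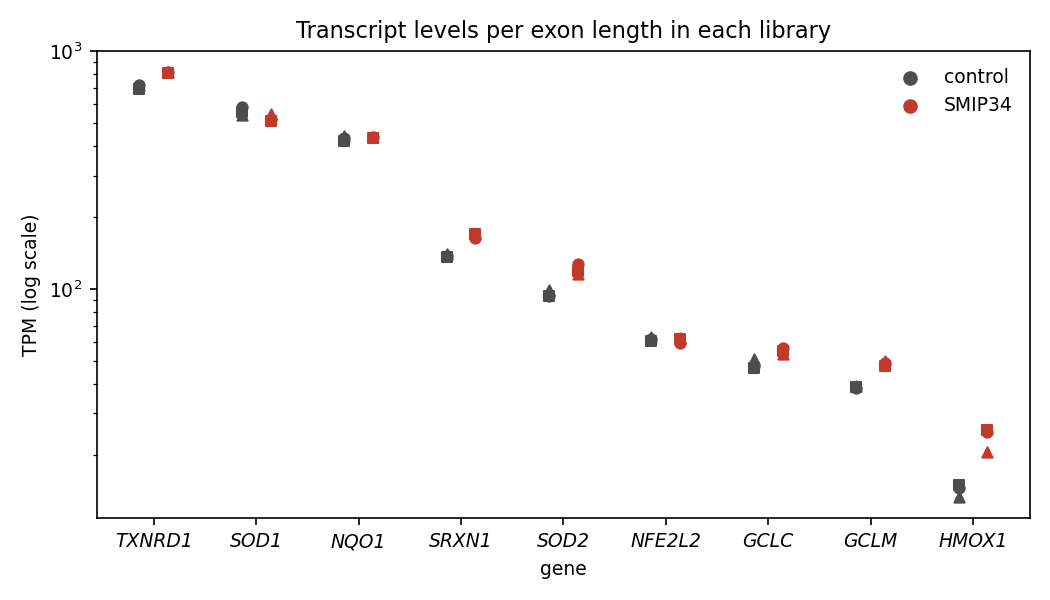
TPM of the 9 genes on a log scale, 1 point per library, with control and SMIP34-treated libraries side by side. TXNRD1 lies near 713 TPM in control and 815 TPM in treated cells and HMOX1 near 14.3 and 23.7 TPM, and the order of the genes is the same in both groups.

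NFE2L2 (chr2:178095033-178129859 in hg19, minus strand, 6 annotated exons) was measured at 105.8, 105.1 and 105.4 CPM in control replicates 1 to 3 and at 97.29, 100.01 and 101.88 CPM in treated replicates 1 to 3. Each treated library lay below each control library, with a gap smaller than the range of the treated ones. The log2 fold change was -0.08 (SE 0.0342, 95% interval -0.151 to -0.00997), with an adjusted p-value of 0.0705 in edgeR. NFE2L2 passed in 3 of 18 alternative settings. Per length its means were 61.5 ± 1.37 TPM in control and 61.1 ± 1.45 TPM in treated cells, and the groups overlapped.

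KEAP1, the adaptor that marks NRF2 for degradation, fell. It was measured at 163, 168 and 165 CPM in control libraries and at 137, 139 and 144 CPM in treated libraries, without overlap. KEAP1 had a log2 fold change of -0.24 (SE 0.0317, adjusted p-value 1.51e-06), and it passed in all 18 of 18 alternative settings. The NFE2L2 to KEAP1 transcript ratio, which does not depend on how libraries are scaled, was 0.524, 0.505 and 0.518 in control and 0.574, 0.582 and 0.570 in treated libraries. The treated ratios were all higher, with a mean difference of 0.16 on the log2 scale and a two-sided exact permutation p-value of 0.1, the smallest that 3 against 3 libraries can give.

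GCLM and GCLC encode the modifier and the catalytic subunit of glutamate-cysteine ligase, the rate-limiting enzyme of glutathione synthesis, and both rose. GCLM (chr1:94352590-94375012 in hg19, minus strand, 7 annotated exons), which carries the core at its start shown above, was measured at 60.6, 62.0 and 60.2 CPM in control and at 73.4, 71.1 and 74.7 CPM in treated libraries. The groups were far apart relative to their spread. The log2 fold change of GCLM was 0.26 (SE 0.0397, adjusted p-value 1.05e-05 in edgeR). GCLC (chr6:53362140-53409927 in hg19, minus strand, 16 annotated exons) was measured at 93.6, 92.7 and 97.0 CPM in control and at 105.2, 101.9 and 99.0 CPM in treated libraries. The highest control and the lowest treated library of GCLC were close to each other. Its log2 fold change was 0.11 (SE 0.0361, adjusted p-value 0.0167), and the call was lost without control replicate 1, control replicate 2 or SMIP34 replicate 1 (adjusted p-values 0.0513, 0.0678 and 0.109).

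The GCLM to GCLC transcript ratio was 0.804, 0.830 and 0.770 in control and 0.865, 0.865 and 0.935 in treated libraries. The modifier subunit was the less abundant transcript in all 6 libraries, and its share relative to the catalytic subunit was higher in the 3 treated ones. The mean log2 ratio went from -0.32 ± 0.054 to -0.17 ± 0.064, a difference of 0.15 (two-sided exact permutation p-value 0.1, the smallest possible).

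TXNRD1 encodes the cytosolic thioredoxin reductase, a selenoprotein that keeps thioredoxin reduced with NADPH. TXNRD1 (chr12:104609559-104744062 in hg19, plus strand, 18 annotated exons) was measured at 1581, 1528 and 1537 CPM in control and at 1694, 1673 and 1689 CPM in treated libraries. The rise was modest in proportion and larger than the spread, with a log2 fold change of 0.12 (SE 0.0245, adjusted p-value 0.000325 in edgeR). Because of its abundance, TXNRD1 alone made up 0.151% to 0.157% of all counts in control and 0.168% to 0.170% in treated libraries. Fractional counts of TXNRD1, from reads shared with other places or genes, occurred in 6 of 6 libraries.

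The 9 genes together summed to 2987, 2921 and 2911 CPM in control and to 3103, 3064 and 3107 CPM in treated libraries. Without TXNRD1 the sums were 1374 to 1406 CPM in control and 1392 to 1418 CPM in treated libraries, which overlapped. The non-overlap of the summed level of these genes therefore rested on TXNRD1.

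SRXN1 encodes sulfiredoxin, which restores peroxiredoxins that hydrogen peroxide has overoxidized. SRXN1 (chr20:627268-633890 in hg19, minus strand, 2 annotated exons) was measured at 182, 183 and 180 CPM in control and at 206, 212 and 214 CPM in treated libraries. The gap between the groups was larger than the range of either. SRXN1 had a log2 fold change of 0.21 (SE 0.0293, adjusted p-value 2.63e-06).

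HMOX1 encodes the inducible heme oxygenase, which breaks heme down to biliverdin, iron and carbon monoxide. HMOX1 (chr22:35777060-35790207 in hg19, plus strand, 5 annotated exons) was measured at 12.0, 12.4 and 10.7 CPM in control and at 19.5, 19.7 and 16.0 CPM in treated libraries. Replicate 3 was the lowest library of both groups, and the lowest treated library still exceeded the highest control library. HMOX1 had the largest change among the 9, with a log2 fold change of 0.65 (SE 0.0891, 95% interval 0.472 to 0.838, adjusted p-value 2.27e-06), and stood at place 364 of 13408 by absolute log2 fold change. It passed in all 18 of 18 alternative settings, with log2 fold changes between 0.60 and 0.74.

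The genes outside the 9 whose CPM profile over the 6 libraries was most like that of HMOX1 were ARID5A, TPPP and LOC100128071, by the root mean square difference of log2 CPM centered on each gene's mean (0.0388, 0.0731 and 0.0883). Since they were chosen for this profile, their levels are a description with no test. ARID5A, which encodes an RNA-binding protein, averaged 8.78 ± 0.779 CPM without and 13.3 ± 1.14 CPM with SMIP34. The means of TPPP were 1.39 and 2.15 CPM and those of LOC100128071 were 1.08 and 1.63 CPM.

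NQO1 encodes a quinone reductase that is widely used as an indicator of NRF2 activity, and it did not rise with the other enzymes. NQO1 (chr16:69743304-69760533 in hg19, minus strand, 6 annotated exons) was measured at 578, 570 and 573 CPM in control and at 552, 544 and 554 CPM in treated libraries. The treated libraries were all lower by a small amount. NQO1 had a log2 fold change of -0.06 (SE 0.0250, 95% interval -0.111 to -0.00841, adjusted p-value 0.0654 in edgeR). The sign of this difference depended on the scale, since per length NQO1 was at 431 ± 10.2 TPM in control and 435 ± 2.17 TPM in treated cells, and with libraries scaled to the TPM denominator, which moved the median of all genes to 0.0697, the log2 fold change was 0.01.

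**Figure D3:**
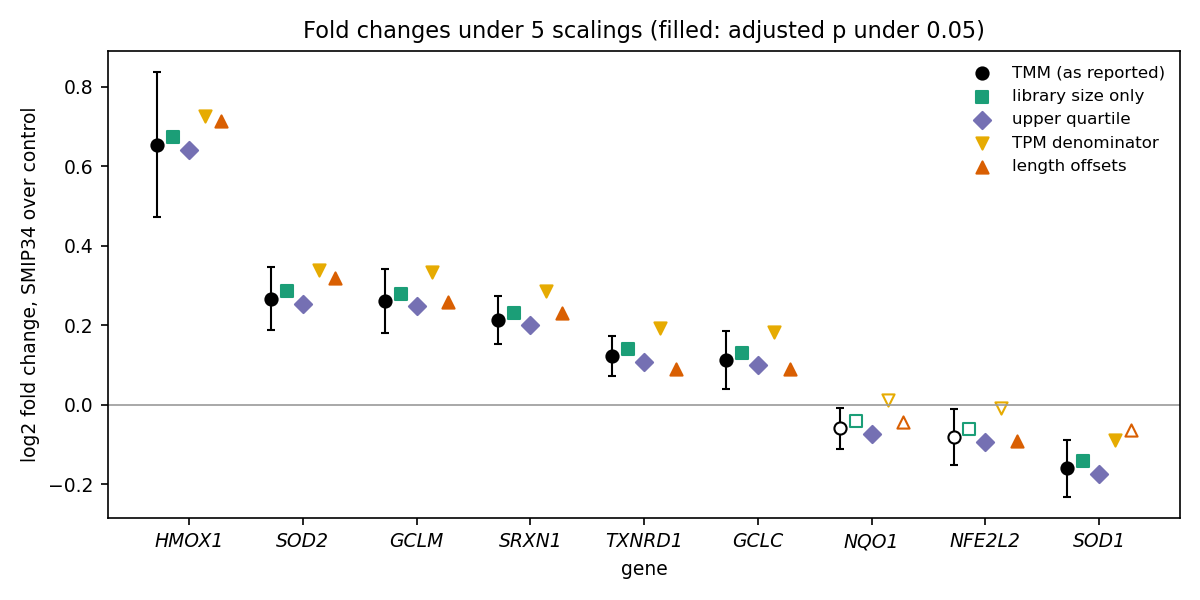
Log2 fold change of SMIP34 against control for the 9 genes under 5 scalings of the libraries, with filled points for an adjusted p-value under 0.05 and bars for the 95% interval under TMM scaling. HMOX1, SOD2, GCLM, SRXN1, TXNRD1 and GCLC stay above 0 under each scaling shown, whereas NQO1 lies at -0.06 under TMM scaling and at 0.01 under the TPM denominator.

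SOD2 rose and SOD1 fell, and with offsets for gene length the decrease of SOD1 did not pass. SOD2 (chr6:160100149-160114353 in hg19, minus strand, 6 annotated exons) was measured at 85.5, 87.1 and 87.9 CPM in control and at 110, 103 and 100.1 CPM in treated libraries. The treated libraries were all higher and more spread than the control ones. The log2 fold change of SOD2 was 0.27 (SE 0.0383, adjusted p-value 4.93e-06 in edgeR), and it passed in 18 of 18 alternative settings. The study also measured SOD2 by RT-qPCR, which was not analysed here.

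SOD1 (chr21:33031935-33041243 in hg19, plus strand, 5 annotated exons) was measured at 289, 281 and 260 CPM in control and at 245, 240 and 258 CPM in treated libraries. Control replicate 3 and SMIP34 replicate 3 were nearly equal, and the other libraries were well apart. The log2 fold change of SOD1 was -0.16 (SE 0.0345, adjusted p-value 0.000656). With an annotated exon length of 965 bases SOD1 belongs to the shortest of the 10 length groups, whose median log2 fold change was -0.10. With offsets for gene length the log2 fold change of SOD1 was -0.06 (adjusted p-value 0.0738), so the call was lost, while NFE2L2 passed as lower at -0.09 (adjusted p-value 0.0289) and the 6 genes called higher still passed.

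The SOD2 to SOD1 transcript ratio was 0.161, 0.169 and 0.184 in control and 0.245, 0.234 and 0.211 in treated libraries. The cytosolic form was the more abundant transcript in every library, and the ratio was higher in the 3 treated ones. The mean log2 ratio went from -2.55 ± 0.098 to -2.12 ± 0.11, a difference of 0.43 (two-sided exact permutation p-value 0.1, the smallest possible). CCS, the copper chaperone of SOD1, fell from 35.3 ± 2.40 to 30.4 ± 0.858 CPM (log2 fold change -0.21, SE 0.0571, adjusted p-value 0.00456). The call of CCS was lost with offsets for gene length (-0.12, adjusted p-value 0.0767), with libraries scaled to the TPM denominator (-0.14, 0.0537) and without control replicate 2 (-0.16, 0.0516). CAT, which encodes catalase, averaged 75.9 ± 2.83 CPM without and 71.5 ± 2.64 CPM with SMIP34, overlapped between the groups and did not pass (log2 fold change -0.09, adjusted p-value 0.102).

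The other genes of these pathways were read from 7 lists of 80 genes, of which 69 passed the filter on low counts. Of the 69, 7 were higher (10.1%), 33 were lower (47.8%) and 29 did not pass, against 17.4% higher and 17.2% lower of all genes tested. Their median log2 fold change was -0.10, against -0.0022 over all genes. The wider genes were also short: their median exon length was 1670 bases, against 2591 bases for the 9 members and 3028 bases for all genes tested. With offsets for gene length 9 of the 69 were higher (13.0%) and 19 lower (27.5%), with a median of -0.041, against 15.7% higher and 15.8% lower of all genes. With libraries scaled to the TPM denominator 12 were higher (17.4%) and 16 lower (23.2%), with a median of -0.029, against 28.7% higher and 8.16% lower of all genes. The part of gene length in these counts was not tested further.

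Among 11 regulators and partners of NRF2, 5 rose, KEAP1 fell and 5 did not pass, so that 54.5% passed against 34.6% of all genes. SQSTM1, which encodes the p62 protein that can displace NRF2 from KEAP1, was measured at 1012, 1058 and 1035 CPM in control and at 1470, 1465 and 1469 CPM in treated libraries. Its log2 fold change of 0.50 (SE 0.0249, adjusted p-value 1.03e-14) was larger than the spread, and the treated libraries lay within a few CPM of each other. The small MAF genes, whose products pair with NRF2 on DNA, were all higher: MAFK rose from 25.3 ± 0.611 to 36.0 ± 0.647 CPM (log2 fold change 0.51, SE 0.0545, adjusted p-value 5.24e-08), MAFF by 0.47 (adjusted p-value 6.35e-09) and MAFG by 0.14 (adjusted p-value 0.00271) on the log2 scale. CUL3, the ligase scaffold that works with KEAP1, rose by 0.17 on the log2 scale (adjusted p-value 0.000454). BACH1, a repressor that competes for the same elements, and NFE2L1, a relative of NFE2L2, had log2 fold changes of 0.02 and 0.01 and did not pass (adjusted p-values 0.743 and 0.880). With offsets for gene length 6 of the 11 were higher and 1 lower, where 31.5% of all genes passed.

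Among 14 tested genes of glutathione synthesis, reduction and use other than GCLM and GCLC, 1 was higher and 8 were lower (64.3% passing, against 34.6% of all genes). SLC7A11, the cystine importer subunit that supplies cysteine for glutathione and is itself a known NRF2 target, had the largest decrease. It was measured at 75.5, 73.3 and 81.8 CPM in control and at 48.5, 48.9 and 48.7 CPM in treated libraries. Its log2 fold change was -0.66 (SE 0.0444, adjusted p-value 7.84e-12), similar in size to that of HMOX1 with the opposite sign, and it was -0.78 with offsets for gene length. GPX1, a glutathione peroxidase, fell from 295 ± 10.8 to 241 ± 7.47 CPM (log2 fold change -0.29, adjusted p-value 4.15e-08), and GSTP1, a glutathione transferase, fell by 0.26 on the log2 scale (adjusted p-value 1.46e-07). GLRX, which encodes a glutaredoxin, was the gene called higher, with means of 5.35 ± 0.558 and 6.75 ± 0.245 CPM (log2 fold change 0.34, SE 0.123, adjusted p-value 0.0352). It passed in 2 of the 6 fits that left out a library, with adjusted p-values up to 0.138. With offsets for gene length 1 of the 14 genes was higher and 6 were lower, against 15.7% and 15.8% of all genes.

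Among 10 tested genes of the thioredoxin and peroxiredoxin system other than TXNRD1 and SRXN1, none was higher and 6 were lower (60% passing, against 34.6% of all genes). TXN2, the mitochondrial thioredoxin, fell from 77.2 ± 2.70 to 65.2 ± 2.30 CPM (log2 fold change -0.24, SE 0.0409, adjusted p-value 4.14e-05). The peroxiredoxins PRDX2, PRDX3, PRDX4, PRDX5 and PRDX6 fell by 0.10 to 0.16 on the log2 scale. PRDX1 and TXN did not pass (log2 fold changes -0.05 and -0.07, adjusted p-values 0.164 and 0.0953). With offsets for gene length PRDX4, PRDX5 and PRDX6 lost their calls (-0.03, -0.05 and -0.04, adjusted p-values 0.570, 0.172 and 0.241). In that fit 3 of the 10 were lower and 1 was higher, against 15.8% and 15.7% of all genes. The gene called higher there was TXN, whose exons span 508 bases (log2 fold change 0.08, adjusted p-value 0.00183).

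Of 8 genes that supply NADPH, 1 was higher and 2 were lower, which at 37.5% is near the 34.6% of all genes that passed. ME1, the cytosolic malic enzyme, rose from 80.7 ± 1.26 to 87.7 ± 3.56 CPM (log2 fold change 0.12, SE 0.0383, adjusted p-value 0.0152), and the call was lost without SMIP34 replicate 1 (adjusted p-value 0.125). PGLS, of the pentose phosphate pathway, fell from 54.6 ± 1.27 to 43.4 ± 1.06 CPM (log2 fold change -0.33, SE 0.0448, adjusted p-value 2.03e-06).

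Of 14 tested genes of quinone, carbonyl and xenobiotic detoxification other than NQO1, none was higher and 7 were lower (50% passing, against 34.6% of all genes). The aldo-keto reductase AKR1C2 had the largest decrease, from 79.0 ± 0.655 to 59.6 ± 2.11 CPM (log2 fold change -0.41, SE 0.0397, adjusted p-value 9.30e-09), and AKR1C1 and AKR1C3 fell by 0.34 and 0.33 on the log2 scale. AKR1C1 and AKR1C2 are near-identical copies with fractional counts in 5 of 6 libraries, so the division of reads between them is uncertain. The export pumps ABCC2 and ABCC4 fell by 0.33 and 0.27 on the log2 scale (adjusted p-values 0.00233 and 2.73e-06). With offsets for gene length 5 of the 14 were lower, against 15.8% of all genes.

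Of 7 tested genes of heme and iron handling other than HMOX1, 5 were lower, against 17.2% of all genes. FECH, which inserts iron in the last step of heme synthesis, fell from 57.4 ± 1.13 to 46.7 ± 1.47 CPM (log2 fold change -0.30, SE 0.0440, adjusted p-value 7.05e-06), and the heme transporter SLC48A1 fell by 0.26 (adjusted p-value 1.12e-07). The ferritin chains FTH1 and FTL fell by 0.11 each, and with offsets for gene length FECH and SLC48A1 were the genes of this list that passed. Of 5 tested genes of superoxide and peroxide handling other than SOD1 and SOD2, 4 were lower, against 17.2% of all genes. These were SOD3, CCS, CYBA and PON2. None of the 5 passed with offsets for gene length, where 31.5% of all genes passed. SOD3, the extracellular superoxide dismutase, fell from 10.5 ± 0.186 to 8.45 ± 0.856 CPM (log2 fold change -0.31, SE 0.0999, adjusted p-value 0.0156). The call of SOD3 was lost without SMIP34 replicate 1 (adjusted p-value 0.105) or control replicate 2 (0.0504).

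**Figure D4:**
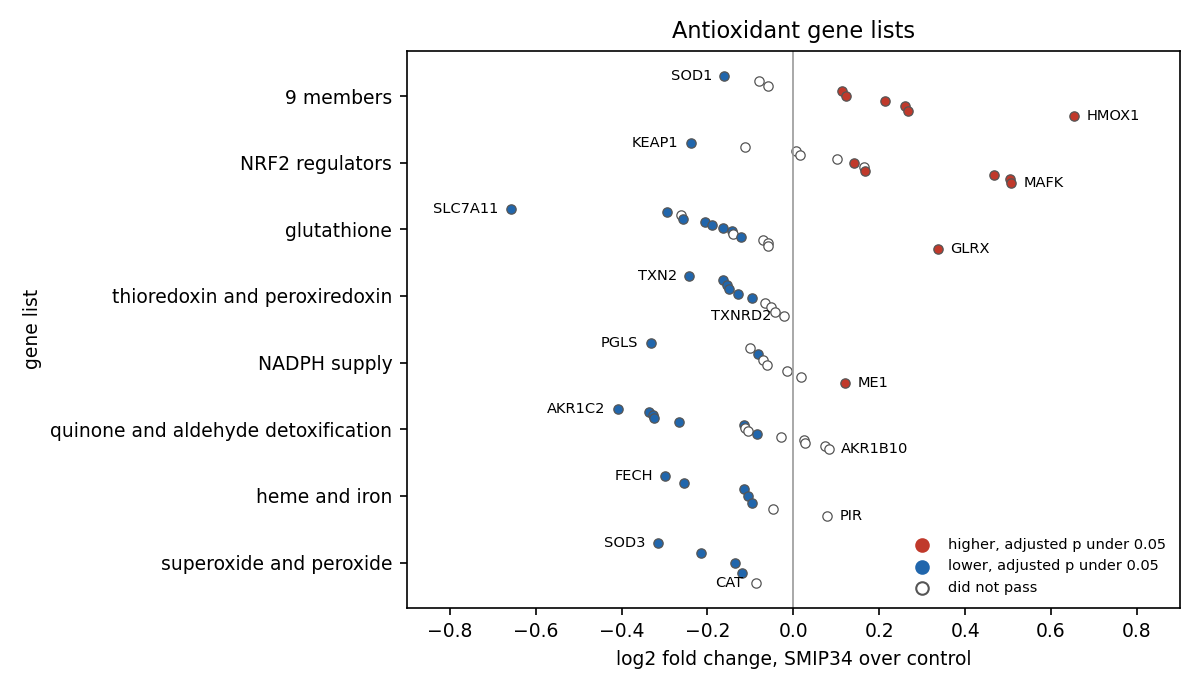
Log2 fold change of SMIP34 against control for the tested genes of the 9 members and of the 7 wider lists, in red where higher, in blue where lower and open where the adjusted p-value was 0.05 or more, with the extremes of each list named. 6 of the 9 members and 5 of 11 regulators are red, and the glutathione list reaches down to SLC7A11 at -0.66.

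The other 11 of the 80 genes were under the filter. The highest count of any of them in any library was 8, for GPX3, and GSTM3 and CBR3 had 0 counts in all libraries. The superoxide-producing oxidases NOX1, NOX4, DUOX1 and DUOX2 were among these 11, with at most 1, 1, 4 and 5 counts in a library.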

How the data were processed

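The 3 control and 3 SMIP34 RNA-seq libraries were grouped by their treatment labels and none was left out. The deposited values are estimated counts. Per the file headers, the authors ran featureCounts 1.5.0-p1, which summed reads by strand over hg19 exons, with a minimum mapping quality of 2, and divided reads that mapped to several places or genes into fractions. The submitters' processing notes name HISAT2, whereas the methods name tophat2 and HTSeq, and the labels name library kits of different makers. The control labels name medium only, whereas the methods name a vehicle.

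Here, counts were rounded, filtered with filterByExpr (13408 genes left), scaled by TMM and tested two-sided in edgeR 4.0.16 (R 4.3.3) by its quasi-likelihood method, with p-values adjusted by Benjamini-Hochberg over all 13408 genes. SE were derived from the F statistic. Log2 CPM used a prior count of 2. TPM were computed from the exon lengths in the files. Ratios of TPM were compared with exact permutation tests (SciPy 1.17.1). The fit was also run on simulated counts with the same dispersion for every gene, which checks the code and not the calls. Motifs were searched in RefSeq promoter windows (GRCh38.p14), so no coordinates were converted.

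The members and lists were chosen with earlier results of these data known. Named genes were the members, KEAP1, CCS, CAT, the called extremes of each list and the 3 genes most like HMOX1. Other named list genes were chosen after their values were seen. Alternatives were DESeq2 1.42.0, limma 3.58.1 voom, the legacy quasi-likelihood method, other scalings and filters, unrounded counts, length offsets (loess, span 0.3), a replicate block and leaving out each library. Scaling to the TPM denominator was chosen after seeing the data. Replicate numbers were checked for pairing, which the check did not show and cannot exclude. Between 19562711 and 22014835 counts per library limit low genes most.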

Additional observations from a re-analysis of the deposited data

How the results depend on the processing

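Of 162 comparisons of the 9 members' fold changes with an alternative setting, 151 kept their direction and their side of the threshold. NFE2L2 passed as lower with upper quartile scaling (-0.094), a filter of 10 CPM in 3 libraries (-0.086) and length offsets (-0.091). NQO1 passed as lower with DESeq2 (-0.060), upper quartile scaling (-0.074) and the filter of 10 CPM (-0.066), and was at 0.012 with the TPM denominator, which was chosen after seeing the data. GCLC lay between 0.090 and 0.135 when 1 library was left out and lost its call without control replicate 1, control replicate 2 or SMIP34 replicate 1. SOD1 was at -0.063 and lost its call with length offsets. The cause of these changes was not tested. Under the stricter filter 9944 genes were tested in place of 13408, and 147 of all genes passed both thresholds in place of 444. The number of members passing was between 6 and 9 over all 18 settings, where 23.8% to 44.7% of all genes tested passed. HMOX1, GCLM, TXNRD1, SRXN1 and SOD2 passed in each of these settings. A further 267 comparisons covered KEAP1, CCS, CAT, the called extremes of each list and the 3 genes most like HMOX1. Of these, 244 were unaffected, 20 lost the call and 3 gained it. The other list genes named above, such as SQSTM1, MAFF and GPX1, were not compared gene by gene over these settings. The 3 transcript ratios kept their direction in 27 of 27. The deviations of same-numbered libraries correlated at -0.028, 0.0334 and -0.0111, and 2 of 6 libraries correlated best with their own number, and the numbers were therefore not treated as pairing the libraries. With a replicate block 7 members, 39 of the wider genes in place of 40, and 4432 of all genes in place of 4645 passed, and no call of a member was lost or gained; the ratios then had a p-value of 0.25 by exact permutation, the smallest possible. DESeq2 called 3586 of all genes. Genes of a few CPM, such as GLRX, are limited by depth, and a value of 0 covers only what these totals can detect.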
